A study of Rattus norvegicus with 8 samples.

Results

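Cells fold new proteins with chaperones, and 36 genes of protein folding and of the responses to misfolded protein were examined here in rat kidneys. The set was chosen by name: 23 genes act in the endoplasmic reticulum (ER), 11 in the cytosol and 2 in mitochondria. Of the 36 genes, 35 had a probe set annotated to a single gene symbol and were measured, out of 17245 such genes on the array. The one left out was Hspa1b, the heat-inducible HSP70, whose probe sets were annotated to several genes at once. All 35 lay above the filter that removed the dimmest 20% of genes, so all entered the test of 13796 genes.

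The HSRA rat is a heterogeneous stock derived model in which a kidney is missing from birth on one side. The tested animals, HSRA-S, were born with a single kidney (congenital solitary kidney), and the control animals, HSRA-C, had both. All 8 rats belonged to the HSRA model and were 4 weeks old, so the control shares the background of the solitary-kidney animals, and no other strain, treatment or transgene is named. Whole kidneys of 4 animals per group, described as independent samples, were measured on 1 Affymetrix Rat Gene 1.1 ST array each, so cortex and medulla are mixed in every value.

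Unfolded protein in the ER is sensed by the membrane proteins encoded by Atf6, Ern1 (IRE1) and Eif2ak3 (PERK). ATF6 is cut to release a transcription factor, IRE1 splices the mRNA of the transcription factor XBP1, and PERK phosphorylates the translation factor eIF2alpha. Together they raise ER chaperones and the machinery of ER-associated degradation (ERAD), which returns misfolded proteins to the cytosol for the proteasome. Cytosolic heat shock proteins are raised by a separate factor, HSF1, and mitochondria fold imported proteins in a chaperonin made of HSP60 and its lid HSP10. In the kidney, small heat shock proteins are known to be abundant in the medulla, where cells face high salt and urea.

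Promoters of some of these genes carry the motifs of the responses just described. Among the members, the ER stress elements were found only in ER genes and the heat shock element only in the others. Many members had no match, so the motifs do not sort all of them. Promoter windows of RefSeq (build GRCr8, 250 bases before to 50 after each start site) were available for 29 of the 36 genes. The ER stress element ERSE, searched on both strands as CCAAT and CCACG with 9 free bases between them, was found in the windows of 7 genes, all of them ER genes, out of 18 ER genes with a window. It was found in 0 of 9 cytosolic and 0 of 2 mitochondrial genes with a window, and in 0.0657% of all 33469 promoter windows. In the sites below the fixed letters of the motif are in capitals and the 9 free bases in lower case, and each is written along the strand that reads as the motif.
Hspa5: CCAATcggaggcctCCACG
Xbp1: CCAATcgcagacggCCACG
Dnajc3: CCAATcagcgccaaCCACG
Canx: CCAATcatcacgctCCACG
Calr: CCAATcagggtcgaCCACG
Creld2: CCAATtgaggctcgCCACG
Hsp90b1: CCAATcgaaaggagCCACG
Hsp90b1, second site: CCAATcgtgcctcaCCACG

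The shorter element ERSE-II, ATTGG and CCACG with 1 free base between them on either strand, was found in Dnajb11, Herpud1 and Hyou1, also ER genes, against 0.0508% of all windows. Its CCACG end is shared with ERSE, and no window held both. The element UPRE, TGACGTGG, was found in 1 member, Hyou1, where it overlaps an ERSE-II site, and in 0.595% of all windows. The heat shock element, searched on both strands as GAA, TTC and GAA with 2 free bases between the blocks, was found in 0 of the 18 ER genes, in the 3 cytosolic genes Hspa8, Hsph1 and Dnaja1 and in both mitochondrial genes, against 0.798% of all windows. A match describes letters only, and a window without a match says nothing about the factor. The upstream sequences of Hspa5, at chr3:38452766-38453015 on the plus strand, and of Hspe1, at chr9:64084077-64084326 on the plus strand, show one promoter of each kind. The capitals mark the fixed letters of ERSE in Hspa5 and of overlapping heat shock elements in Hspe1.
Hspa5: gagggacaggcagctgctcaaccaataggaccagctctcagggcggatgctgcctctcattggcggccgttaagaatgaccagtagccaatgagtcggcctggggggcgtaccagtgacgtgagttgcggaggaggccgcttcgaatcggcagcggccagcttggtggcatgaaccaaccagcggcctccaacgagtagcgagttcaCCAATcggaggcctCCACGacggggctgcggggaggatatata
Hspe1: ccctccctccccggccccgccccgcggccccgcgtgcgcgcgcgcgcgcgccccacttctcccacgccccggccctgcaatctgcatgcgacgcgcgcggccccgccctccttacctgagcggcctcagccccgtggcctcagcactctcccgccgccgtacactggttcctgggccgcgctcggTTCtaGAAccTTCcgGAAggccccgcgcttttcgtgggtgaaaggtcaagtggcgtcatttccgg

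Hspe1 and Hspd1 lie head to head on opposite strands of chromosome 9, with 290 bases between the start sites used for their windows. The 2 windows share 211 bases, and the heat shock elements found in both are the same bases.

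Differences between the groups were small for these genes. No gene passed an adjusted p under 0.05 in limma's fit over 13796 genes, whether a member (0 of 35) or any other, where the background was 0%. At an unadjusted p under 0.05 there were 3 members, Hspd1, Hspe1 and Hspa4, all higher in HSRA-S, where 7.36% of all genes were called on that side. That is 8.57% of the 35, against 12.1% of all tested genes, so the members were not called more often than the rest. The groups did not overlap in 2 members, Hspd1 and Cct5, or 5.71%, against a background of 6.29%.

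The fit also gives an interval for each member by itself, which does not bound all of them jointly. The 95% interval of the difference lay inside 1.5-fold in either direction for all 35 members, against 94.3% of all tested genes, and inside 1.2-fold for 21 of 35, or 60%, against 47.2%. The median SD within groups was also smaller, 0.086 for the members against 0.118 for all tested genes. The difference was above 0 for 27 of the 35 members, or 77.1%, where the background was 55.5%. The median log2 difference was 0.058 over the members and 0.015 over all tested genes. HSRA-C replicates 3 and 4 stood apart in markers of the proximal tubule, collecting duct and inner medulla, as did HSRA-S replicate 4 on the opposite side. Without those HSRA-C samples, 22 of the 35 were above 0, against 55.2% of all genes, and the median was 0.030. HSRA-S replicate 4 was kept in that alternative. The genes vary together, and these counts carry no test of the list.

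**Figure D1:**
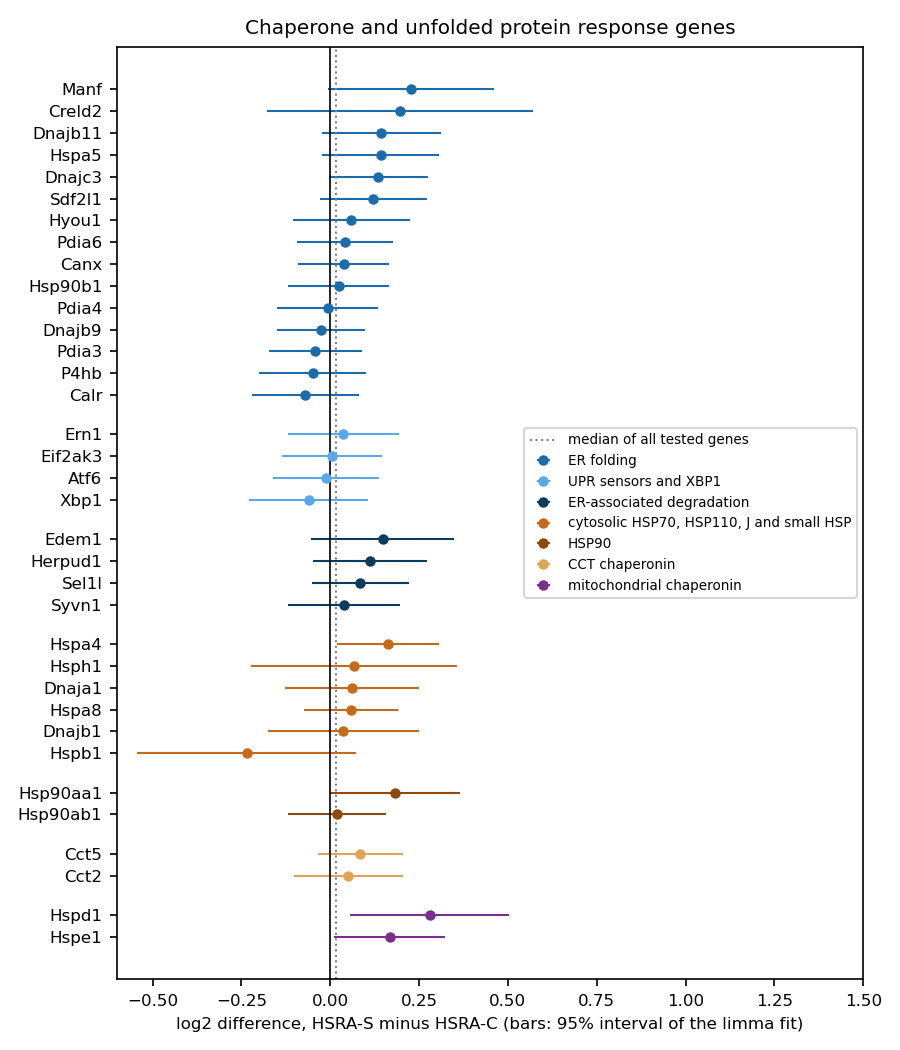
Log2 difference of each of the 35 measured genes, HSRA-S minus HSRA-C, grouped by role; points are the estimates and bars the 95% intervals of the limma fit over 8 arrays. The intervals of Hspd1, Hspe1 and Hspa4 lie above 0, those of the 4 sensor genes centre between -0.061 and 0.037, and Hspb1 has the lowest estimate at -0.24.

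In markers of the proximal tubule, collecting duct and inner medulla, HSRA-C replicates 3 and 4 stood apart, and HSRA-S replicate 4 stood apart on the opposite side. In 7 thick limb and distal markers they did not. Their mean was 10.04 and 10.00 in HSRA-C replicates 3 and 4 and 10.00 in HSRA-S replicate 4, and 9.99 to 10.25 in the other samples. The mean log2 level of 6 inner medulla markers was 8.87 and 8.99 in HSRA-C replicates 3 and 4. It was 8.06, 8.09, 8.18 and 6.76 in HSRA-S replicates 1 to 4, and 7.31 and 7.93 in HSRA-C replicates 1 and 2. The mean of 13 measured proximal tubule markers was 10.3 to 10.8 in HSRA-S and 10.1 to 10.4 in HSRA-C, lowest in replicates 3 and 4 of HSRA-C. For comparison with the filter on dim genes at 3.63, 5 measured markers of the adjacent adrenal cortex had means of 4.27 to 4.40 in HSRA-S and 4.26 to 4.39 in HSRA-C. Plasma cells, which are rich in ER chaperones, had 7 measured markers with means of 4.40 to 4.50 in HSRA-S and 4.36 to 4.51 in HSRA-C. Of these 7 markers, 5 lay above that filter, as did 4 of the adrenal markers. Of those 4 adrenal markers, 2 reached an unadjusted p under 0.05, Cyp11b1 lower and Cyp17a1 higher in HSRA-S. Of the 5 plasma cell markers, 0 reached it. Counts in other lists follow, where 55.5% of all genes were higher in HSRA-S and 12.1% reached that p. Of 7 thick limb and distal markers, 3 were higher and 2 reached it. Of 5 podocyte and 4 endothelium markers, 0 were higher, and 1, the endothelial Cdh5, reached it. The proximal tubule list had 11 of 13 genes higher in HSRA-S, 5 of them at an unadjusted p under 0.05. Of 9 measured collecting duct markers, 0 were higher and 3 reached that p. Of 7 measured leukocyte markers, 7 were higher and 2 reached that p, with means of 5.87 to 6.26 in HSRA-S and 5.62 to 5.93 in HSRA-C. Of 6 cell cycle markers, 6 were higher and 6 reached it, with means of 6.16 to 6.70 in HSRA-S and 5.72 to 6.48 in HSRA-C. The part of the leukocyte and cell cycle lists in the members' values was not tested. The proximal tubule minus collecting duct level was 2.37, 2.38, 2.23 and 3.29 in HSRA-S replicates 1 to 4. In HSRA-C replicates 1 to 4 it was 2.44, 2.24, 1.63 and 1.54. This level is used as a covariate below, and it varied with the group, so adjusted differences cannot separate segment markers from group. Array medians were 30.8 to 32.3 on the linear scale, and arrays correlated at 0.989 to 0.997 over all genes. In whole kidneys, fewer cells of a type and less RNA per cell cannot be told apart.

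Among the mitochondrial members, Hspd1, which encodes HSP60, the barrel of the chaperonin, had log2 levels of 10.03, 9.94, 9.94 and 10.03 in HSRA-S replicates 1 to 4, against 9.87, 9.91, 9.53 and 9.51 in HSRA-C replicates 1 to 4. All 4 solitary kidneys were above all 4 controls, and the 2 low values were those of HSRA-C replicates 3 and 4. HSRA-S averaged 9.98 ± 0.055 and HSRA-C 9.70 ± 0.22 (mean ± SD of 4 kidneys per group), a ratio of 1.21. The log2 difference was 0.28 with an SE of 0.10 (limma adjusted p = 0.358).

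Hspe1, which encodes HSP10, the lid of the same chaperonin, was at 8.38, 8.30, 8.36 and 8.52 in HSRA-S and at 8.31, 8.27, 8.16 and 8.14 in HSRA-C. The groups overlapped narrowly, since HSRA-C replicate 1 lay above HSRA-S replicate 2. The difference was 0.17 (SE 0.070, limma adjusted p = 0.391), or 1.12-fold. Both genes share the promoter region shown above, and both had their lowest 2 values in HSRA-C replicates 3 and 4. Without those samples the differences were 0.094 for Hspd1 and 0.099 for Hspe1, and neither reached an unadjusted p under 0.05. The proximal tubule markers were lowest in those same samples. With each array's proximal tubule minus collecting duct marker level as a covariate, the differences were 0.13 for Hspd1 and 0.058 for Hspe1.

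**Figure D2:**
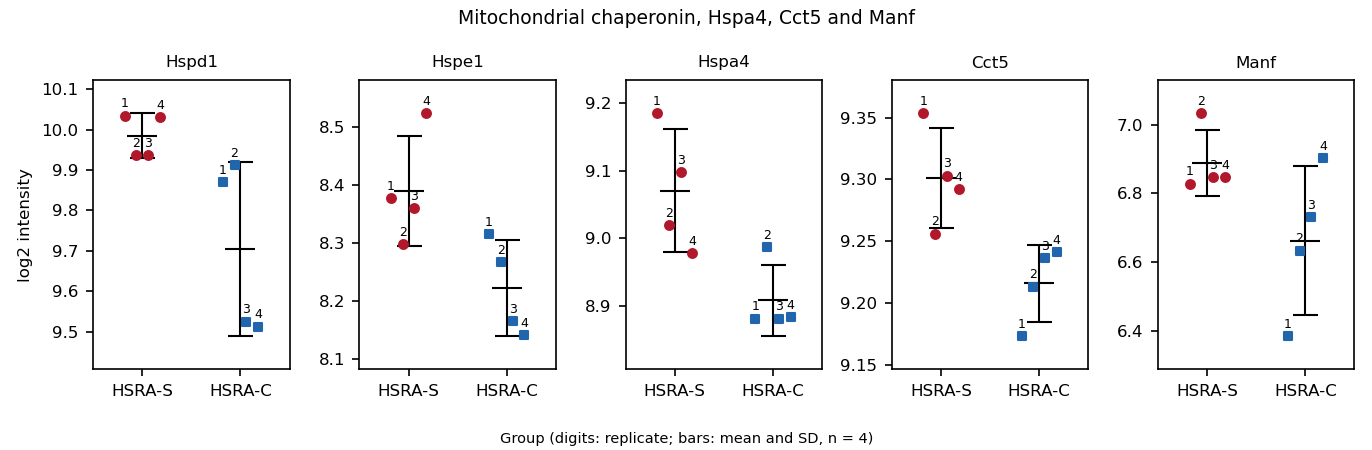
Log2 intensity of 5 members in each array, HSRA-S left and HSRA-C right; digits give the replicate, and bars the mean and SD of 4 animals. Hspd1 and Cct5 do not overlap between groups, and HSRA-C replicates 3 and 4 hold the lowest values of Hspd1 and Hspe1.

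Other genes of mitochondrial protein quality control lay on the same side. Of 19 listed genes, 16 were tested, 15 had a difference above 0, where 55.5% of all genes did, and 0 passed. At an unadjusted p under 0.05 there were 3 of 16, all higher in HSRA-S, where 7.36% of all genes were: the protease subunit Clpx (log2 difference 0.28, SE 0.10), the nucleotide exchange factor Grpel1 (0.23, SE 0.094) and the protease Lonp1 (0.17, SE 0.066). These 3 were named after their values were seen, since their groups overlapped. Hspa9, the mitochondrial HSP70, whose groups also overlapped and which was named outside the rule, averaged 9.88 ± 0.078 in HSRA-S against 9.74 ± 0.094 in HSRA-C (mean ± SD of 4 kidneys). The median difference of the 16 genes was 0.096, and 0.039 without HSRA-C replicates 3 and 4, where 11 of 16 were above 0.

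Within the ER, the sensors were the flattest group. Atf6 was at 7.93, 7.94, 7.96 and 8.11 in HSRA-S and at 8.09, 7.94, 8.01 and 7.94 in HSRA-C, a difference of -0.011 (95% interval -0.16 to 0.14). Ern1 was at 6.83, 6.85, 6.86 and 6.69 in HSRA-S and at 6.83, 6.83, 6.79 and 6.62 in HSRA-C, a difference of 0.037 (-0.12 to 0.19). For both sensors the values of the groups were interleaved. Eif2ak3 was at 7.32, 7.35, 7.28 and 7.50 in HSRA-S, against 7.32 to 7.37 in the 4 HSRA-C kidneys, a difference of 0.0053 (-0.14 to 0.15). Xbp1 was at 10.05, 10.20, 10.23 and 10.13 in HSRA-S and at 10.11, 10.14, 10.24 and 10.38 in HSRA-C, a difference of -0.061 (-0.23 to 0.11). All 4 intervals lay inside 1.2-fold. The deposited values give 1 level per gene, so the spliced form of Xbp1 was not separated from the unspliced one.

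Of 15 ER folding genes, 10 had a difference above 0, 0 passed and 0 reached an unadjusted p under 0.05. Manf, a small secreted protein that is kept in the ER and released under stress, had the widest difference. It was at 6.83, 7.03, 6.85 and 6.85 in HSRA-S and at 6.38, 6.63, 6.73 and 6.90 in HSRA-C. The solitary kidneys lay close together apart from replicate 2, and HSRA-C replicate 4 lay among them. The difference was 0.23 (SE 0.10, limma adjusted p = 0.424). It was 0.38 without HSRA-C replicates 3 and 4, where Manf was the only member at an unadjusted p under 0.05 (4.85% of all genes were), and 0.13 without HSRA-C replicate 1.

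Dnajc3, an ER cochaperone that inhibits PERK, was at 8.07, 7.99, 8.10 and 7.98 in HSRA-S and at 8.0, 7.91, 7.85 and 7.84 in HSRA-C (difference 0.13, SE 0.062, and 0.079 without HSRA-C replicates 3 and 4). Only HSRA-C replicate 1 lay inside the range of the solitary kidneys. Hspa5, which encodes BiP, the HSP70 of the ER and the usual marker of the unfolded protein response, was at 10.57, 10.58, 10.57 and 10.67 in HSRA-S. In HSRA-C it was at 10.53, 10.28, 10.43 and 10.58. HSRA-C replicates 2 and 3 were below all other samples, and the difference was 0.14 (SE 0.074), and 0.084 without HSRA-C replicate 2. Dnajb11, a cochaperone of BiP, had a difference of 0.14 (SE 0.075), and of 0.092 without HSRA-S replicate 2, with 7.79, 7.90, 7.62 and 7.67 in HSRA-S and 7.70, 7.54, 7.57 and 7.59 in HSRA-C.

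The remaining folding genes spanned -0.070 to 0.20. Sdf2l1, a partner of the ER J proteins, was at 0.12, and at 0.18 without HSRA-C replicates 3 and 4. Hyou1, the large HSP70-like exchange factor for BiP, was at 0.060. The HSP90 of the ER, Hsp90b1, was at 0.024 and the J protein Dnajb9 at -0.026. The lectin chaperones that bind glycoproteins, Canx and Calr, were at 0.038 and -0.070. The 4 disulfide isomerases lay between -0.050 for P4hb and 0.042 for Pdia6, with Pdia3 at -0.042 and Pdia4 at -0.0073. Creld2, a secreted ER stress target, had 6.62 ± 0.14 in HSRA-S against 6.42 ± 0.39 in HSRA-C (mean ± SD of 4 kidneys), with HSRA-C replicate 3 at 5.90. The difference was 0.20 over all arrays and -0.092 once HSRA-C replicates 3 and 4 were left out.

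All 4 ERAD members had a difference above 0. Edem1, which passes glycoproteins to degradation, was at 8.31, 8.22, 8.31 and 8.22 in HSRA-S and at 8.30, 8.25, 7.99 and 7.92 in HSRA-C. Herpud1, a scaffold of the degradation complex, was at 8.32, 8.28, 8.38 and 8.12 in HSRA-S and at 8.21, 8.24, 8.09 and 8.11 in HSRA-C. In both genes HSRA-C replicates 3 and 4 were the lowest samples. The differences were 0.15 (SE 0.090) for Edem1 and 0.11 (SE 0.072) for Herpud1, and -0.011 and 0.051 without those samples. Sel1l, the partner of the ubiquitin ligase, was at 7.67, 7.62, 7.48 and 7.53 in HSRA-S and at 7.45, 7.53, 7.47 and 7.51 in HSRA-C (difference 0.085, SE 0.061). The ligase itself, Syvn1, was at 0.039.

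Grouped by the promoter motifs shown above, the 7 genes with an ERSE had a median difference of 0.038, with 5 above 0 and a range of -0.070 to 0.20. The 3 genes with an ERSE-II lay between 0.060 and 0.14. The 5 genes with a heat shock element were all above 0, where 77.1% of the members and 55.5% of all genes were. They lay from 0.058 to 0.28, with the cytosolic ones between 0.058 and 0.067. Hspd1 and Hspe1 among them have the same bases as their elements. The common direction of the 5 genes did not hold in every alternative: Dnaja1 was at -0.076 without HSRA-C replicates 3 and 4, and Hsph1 at -0.059 without HSRA-S replicate 1. None of these 15 genes passed.

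**Figure D3:**
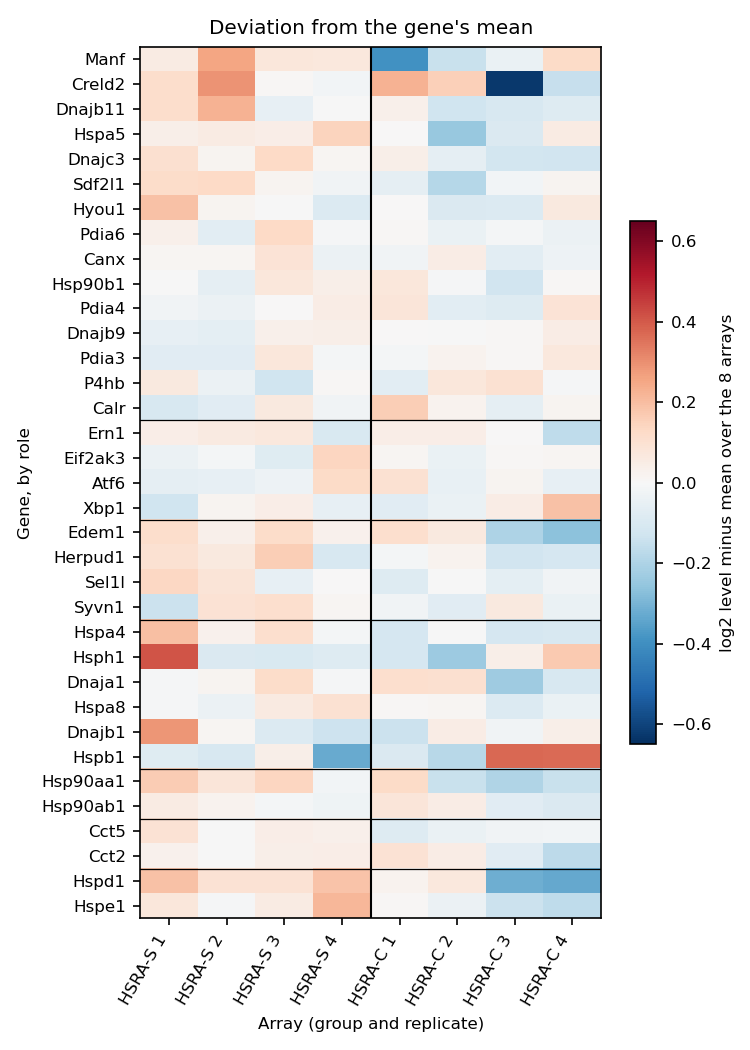
Heat map of the 35 genes (rows, by role) in the 8 arrays (columns, HSRA-S left of the line); colour is the log2 level minus the gene's mean over all arrays. HSRA-C replicates 3 and 4 are low for Hspd1, Hspe1, Edem1 and Dnaja1 and high for Hspb1, while HSRA-S replicate 1 is high for Hsph1 and Dnajb1.

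In the cytosol, 9 of 10 measured members had a difference above 0, and 0 passed. Hspa4, an HSP110-type exchange factor for HSP70, was at 9.18, 9.02, 9.10 and 8.98 in HSRA-S and at 8.88, 8.99, 8.88 and 8.88 in HSRA-C. HSRA-C replicate 2 was the one control above a solitary kidney. The difference was 0.16 (SE 0.065, limma adjusted p = 0.383), or 1.12-fold, and 0.14 without HSRA-C replicates 3 and 4. Hspa8, the constitutive HSP70, was at 11.91, 11.88, 11.98 and 12.02 in HSRA-S and at 11.93, 11.93, 11.83 and 11.88 in HSRA-C (difference 0.058, SE 0.059). It had 9 probe sets, whose differences ran from 0.058 to 0.084.

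Hspb1, the small heat shock protein HSP27, was the single cytosolic member below 0. It was at 6.51, 6.48, 6.62 and 6.26 in HSRA-S and at 6.49, 6.40, 6.96 and 6.95 in HSRA-C. The 2 high values were HSRA-C replicates 3 and 4, the lowest was HSRA-S replicate 4, and the other 5 samples lay between 6.40 and 6.62. The difference was -0.24 (SE 0.14, limma adjusted p = 0.518), and 0.019 without HSRA-C replicates 3 and 4. Of the 6 inner medulla markers, all measured, 0 had a difference above 0, and their mean ran from 6.76 to 8.18 in HSRA-S and from 7.31 to 8.99 in HSRA-C. The 2 samples highest in Hspb1, HSRA-C replicates 3 and 4, and the lowest, HSRA-S replicate 4, were also the highest and lowest in the mean of these markers. Single markers departed from it. Slc6a6 was highest in HSRA-S replicate 4, at 9.40. Slc5a3 was lowest in that sample, at 6.79, but at 7.98 and 8.16 in HSRA-C replicates 3 and 4, below the 8.32 of HSRA-S replicates 1 and 2. With the proximal tubule minus collecting duct covariate Hspb1 was at 0.037.

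Cryab, another small heat shock protein, was examined beside Hspb1 after its values were seen. It was at 9.60, 9.79, 10.02 and 8.78 in HSRA-S and at 9.87, 10.14, 10.27 and 10.34 in HSRA-C. The difference was -0.60 (SE 0.23, limma adjusted p = 0.366), and -0.45 without HSRA-C replicates 3 and 4. Like Hspb1, it was lowest in HSRA-S replicate 4. Hspa2, an HSP70 best known from the testis and chosen likewise, was at 5.32, 5.38, 5.28 and 4.77 in HSRA-S and at 5.14, 5.31, 5.76 and 5.90 in HSRA-C. Its difference of -0.34 was -0.036 without those samples.

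**Figure D4:**
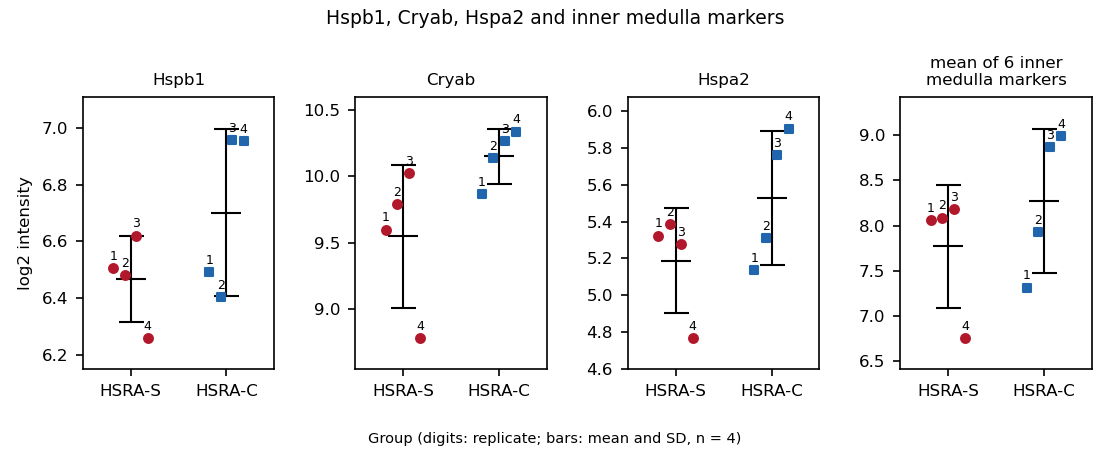
Log2 intensity of Hspb1, Cryab and Hspa2 and the mean of 6 inner medulla markers in each array, HSRA-S left and HSRA-C right; digits give the replicate and bars the mean and SD of 4 animals. In all 4 panels HSRA-S replicate 4 is lowest and HSRA-C replicates 3 and 4 are highest.

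Among heat-inducible genes, Hsph1, Dnajb1 and Dnaja1 did not separate the groups. Hspa1b was not measured, and Hsp90aa1 is described below. Hsph1, an HSP110, was at 7.52 in HSRA-S replicate 1 and at 7.01 to 7.03 in the other 3 solitary kidneys, against 6.88 to 7.28 in HSRA-C. Dnajb1, the HSP40 that works with HSP70, was also highest in HSRA-S replicate 1, at 7.10, with 6.67 to 6.82 in the other solitary kidneys and 6.67 to 6.86 in HSRA-C. Without that sample the differences were -0.059 for Hsph1 and -0.053 for Dnajb1, where all 8 arrays gave 0.067 and 0.037. Dnaja1, a further HSP40, was at 0.061.

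HSP90 has a pair of cytosolic paralogues. Hsp90aa1, the inducible one, was at 9.04, 8.95, 9.01 and 8.86 in HSRA-S and at 9.0, 8.73, 8.68 and 8.73 in HSRA-C (difference 0.18, SE 0.082, limma adjusted p = 0.417). It was 0.10 without HSRA-C replicates 3 and 4. HSRA-C replicate 1 lay among the solitary kidneys and the other 3 controls below them all. Hsp90ab1, the constitutive one, was at 10.25, 10.21, 10.18 and 10.17 in HSRA-S and at 10.27, 10.24, 10.12 and 10.10 in HSRA-C, a difference of 0.019 (95% interval -0.12 to 0.16). Whether the 2 differences are unequal was not tested.

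The CCT chaperonin, which folds actin and tubulin, was represented by 2 of its subunits. Cct5 was at 9.35, 9.26, 9.30 and 9.29 in HSRA-S and at 9.17, 9.21, 9.24 and 9.24 in HSRA-C, without overlap. The difference was 0.085 (SE 0.054, limma adjusted p = 0.549), and the gap between HSRA-S replicate 2 and HSRA-C replicate 4 was narrow. Cct2 was at 8.77, 8.74, 8.78 and 8.79 in HSRA-S and at 8.84, 8.79, 8.67 and 8.57 in HSRA-C (difference 0.051), and its value was -0.046 without HSRA-C replicates 3 and 4.

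A wider list of 148 genes of the same pathways, of which 132 were tested, gave a similar picture in calls but leaned less to one side. Of the 132, 81 were above 0, or 61.4%, against 77.1% of the members and 55.5% of all genes. None passed, 15 reached an unadjusted p under 0.05, or 11.4% against the 12.1% of all genes, with 9 higher and 6 lower in HSRA-S (7.36% and 4.69% of all genes). The median difference was 0.039. Among 21 tested genes of UPR signalling, 8 were above 0 and 13 below. That direction was not stable, since 12 were above 0 without HSRA-C replicates 3 and 4. Stc2, a secreted glycoprotein and PERK pathway target, was at 5.20, 5.01, 5.24 and 4.96 in HSRA-S and at 5.70, 5.47, 5.34 and 5.42 in HSRA-C. All solitary kidneys were below all controls (difference -0.38, SE 0.095, limma adjusted p = 0.331), and the difference was -0.48 without HSRA-C replicates 3 and 4. Ppp1r15b, the constitutive eIF2alpha phosphatase subunit, and Eif2s1, which encodes eIF2alpha, were without overlap at 0.21 (SE 0.077) and 0.13 (SE 0.062), and the site-1 protease Mbtps1, which cuts ATF6, at -0.091 (SE 0.054). Atf4 and Ddit3, genes of the PERK pathway named outside the rule since their groups overlapped, were at -0.048 and -0.041. These are transcript levels, and neither protein nor PERK activity was measured.

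Of 32 further ER folding and translocation genes, 18 were above 0, and 15 without HSRA-C replicates 3 and 4. The oligosaccharyltransferase subunit Ostc was at 7.56, 7.38, 7.23 and 7.40 in HSRA-S and at 7.21, 7.13, 7.17 and 7.13 in HSRA-C, without overlap (difference 0.23, SE 0.074, limma adjusted p = 0.338). The prolyl isomerase Fkbp2 was at 0.25 (SE 0.095). On the other side was Kdelr1, a receptor that returns ER chaperones from the Golgi. It was at 9.30, 9.28, 9.24 and 9.26 in HSRA-S and at 9.41, 9.49, 9.35 and 9.33 in HSRA-C (difference -0.13, SE 0.058). Its groups did not overlap. The other 2 KDEL receptors, looked up after this value was seen, were also below 0, Kdelr2 at -0.11 (SE 0.067) and Kdelr3 at -0.39 (SE 0.12), with overlap. None of the 3 passed.

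Among 26 further ERAD genes, 14 were above 0. Ubxn4, an ER adaptor of the p97 segregase, was at 7.27, 7.22, 7.18 and 7.26 in HSRA-S and at 6.90, 7.08, 6.93 and 7.10 in HSRA-C, without overlap (difference 0.23, SE 0.066, limma adjusted p = 0.331). Nploc4, a cofactor of the same segregase, was at 0.099 (SE 0.058), also without overlap. Of 37 further cytosolic chaperone genes, 26 were above 0 and 1, the prefoldin subunit Pfdn5, had groups without overlap, at -0.12 (SE 0.056). In all, 11 of the 132 genes did not overlap, or 8.33% against 6.29%.

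**Figure D5:**
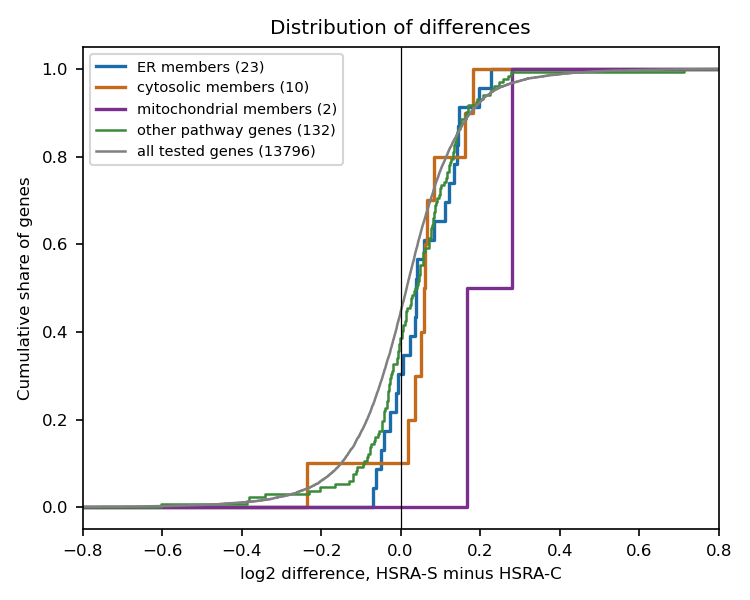
Cumulative distribution of log2 differences, HSRA-S minus HSRA-C, for the ER, cytosolic and mitochondrial members, the other pathway genes and all tested genes; the axis is limited to 0.8 in either direction. The ER and cytosolic curves centre at 0.039 and 0.060, against 0.015 for all genes, and both mitochondrial genes lie at 0.17 or above. Without HSRA-C replicates 3 and 4 the medians were 0.019 for the ER, 0.041 for the cytosolic and 0.096 for the mitochondrial members.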

How the data were processed

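The authors deposited RMA intensity values per probe set, per the submitters' processing notes. The deposited intensity values are linear (2.12 to 9259), so log2 was taken first, and log2 differences of dim genes are compressed by RMA. RMA software, version and genome build: not given in the sources used here. Genes came from probe sets with exactly 1 symbol (18644 of 29214), using the brightest probe set by mean over all arrays. The dimmest 20% of genes, below a log2 mean of 3.63, were left out.

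HSRA-S and HSRA-C were compared with limma 3.58.1 in R 4.3.3 (group only, eBayes without trend, 8 arrays) and Benjamini-Hochberg adjustment over 13796 genes at 0.05. The steps were tested on simulated data. The members and lists were chosen with earlier results of these data known. Named in full were the 3 members of smallest p per role, the sensors and any member differing by over 0.3. Other pathway genes were named where the groups did not overlap, up to 2 per list and direction by p, with exceptions marked. The 1.2-fold bound was set after values were seen. The number of arrays limits the precision. Samples 3 and 4 of HSRA-C were left out as an alternative, as were single samples. The other alternatives were the dim filter, probe set mean, trended prior, scaling, an offset, array weights, a replicate block and a segment covariate.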

Additional observations from a re-analysis of the deposited data

Results flagged for a closer look

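In 9 of 90 groups of 4 samples, 1 sample lay far from the other 3, where chance gives about 1 in 20. Among the solitary kidneys these were Hsph1 at 7.52 in HSRA-S replicate 1 (the others at 7.01 to 7.03), Manf at 7.03 in replicate 2 (6.83 to 6.85), and 3 genes in replicate 4: Hspa5 at 10.67 (10.57 to 10.58), Atf6 at 8.11 (7.93 to 7.96) and Ern1 at 6.69 (6.83 to 6.86). Among the controls they were Hsp90aa1 at 9.0 in HSRA-C replicate 1 (8.68 to 8.73), Hspa4 at 8.99 in replicate 2 (8.88), Eif2ak3 at 7.32 in replicate 2 (7.37) and Fkbp2 at 5.66 in replicate 4 (5.98 to 5.99). Leaving the sample out gave -0.059 for Hsph1, 0.18 for Manf, 0.12 for Hspa5, -0.055 for Atf6, 0.075 for Ern1, 0.25 for Hsp90aa1, 0.19 for Hspa4, -0.0082 for Eif2ak3 and 0.17 for Fkbp2.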

How the results depend on the processing

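No member passed an adjusted p under 0.05 in any of the 19 alternatives, and 21 of the 35 measured genes kept their direction in all of them. Among all genes, 0 passed in the fit reported and 1, not a member, with the dimmest 50% left out, with a trended robust prior, with 16 added or with array weights. The number at an unadjusted p under 0.05 was 3 of 35, where 12.1% of all tested genes reached it. It became 5 with the dimmest 50% left out (14.6% of all tested genes), with median centring (12.4%) or with array weights (16.04%). It was 6 with a trended robust prior (12.5%) or with 16 added before the log (12.6%). Without HSRA-C replicates 3 and 4 it was 1 (4.85%). The share of all genes moved as well, so these counts alone do not show a change particular to the members. Over single samples left out, the number of members ran from 0 (without HSRA-C replicate 3, 7.32% of all genes) to 5 (without HSRA-C replicate 1, 14.1%). With the replicate number as a block it was 2 (1586 of all genes, against 1663 without the block), and deviations of same-numbered samples correlated at -0.11 to 0.13, so the numbers were not taken to pair the samples. The median difference of the mitochondrial members, 0.22, was 0.096 without HSRA-C replicates 3 and 4 and 0.094 with the proximal minus collecting duct covariate, and that of the other pathway genes, 0.039, was 0.022 without those samples. The median of the ER members, 0.039, was 0.019 without HSRA-C replicates 3 and 4, 0.020 without HSRA-S replicate 3 and 0.023 with quantile normalization, and that of the cytosolic members, 0.060, was 0.036 without HSRA-C replicate 3 and 0.037 with quantile normalization. Signs turned for 14 members, among them Hspb1 (-0.24 over all arrays), Creld2 (0.20) and Edem1 (0.15). Without HSRA-C replicates 3 and 4, Cct2 was at -0.046, Creld2 at -0.092, Dnaja1 at -0.076, Edem1 at -0.011, Ern1 at -0.025, Hsp90ab1 at -0.053, Hsp90b1 at -0.021, Hspb1 at 0.019 and Xbp1 at 0.030. With the covariate, Cct2 was at -0.027, Dnaja1 at -0.010, Eif2ak3 at -0.052, Hsp90ab1 at -0.019, Hsp90b1 at -0.014, Hspb1 at 0.037 and Xbp1 at 0.022. Quantile normalization gave -0.014 for Eif2ak3 and -0.0037 for Hsp90ab1, and array weights -0.014 for Eif2ak3. Over single samples left out, the ranges that crossed 0 were -0.055 to 0.020 for Atf6, -0.0057 to 0.11 for Dnaja1, -0.053 to 0.088 for Dnajb1, -0.041 to 0.032 for Eif2ak3, -0.012 to 0.075 for Ern1, -0.0086 to 0.049 for Hsp90ab1, -0.013 to 0.054 for Hsp90b1, -0.059 to 0.14 for Hsph1 and -0.036 to 0.021 for Pdia4. The cause of these changes was not tested beyond the samples left out and the covariate, which itself varied with the group.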

Other observations

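Fkbp5, an HSP90 cochaperone and known target of the glucocorticoid receptor, was chosen after its values were seen. It was at 7.67, 7.69, 7.61 and 6.12 in HSRA-S and at 6.84, 7.29, 5.96 and 6.15 in HSRA-C. HSRA-S replicates 1 to 3 and HSRA-C replicate 2 were the 4 highest samples. The mean of 6 cell cycle markers was highest in the same 4, at 6.70, 6.69, 6.62 and 6.16 in HSRA-S and at 5.72, 6.48, 5.84 and 5.74 in HSRA-C. Among these markers Kif11 departed from it, at 6.36 in HSRA-S replicate 4 and 6.07 in HSRA-C replicate 2. The mean of 7 leukocyte markers was also highest in the same 4, at 6.25, 6.26, 6.10 and 5.87 in HSRA-S and at 5.86, 5.93, 5.82 and 5.62 in HSRA-C. A link of Fkbp5 with either list was not tested. The difference of Fkbp5 was 0.71 (SE 0.39, limma adjusted p = 0.485), and 0.20 without HSRA-C replicates 3 and 4.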
